A study of Homo sapiens with 6 samples.

Results

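The genes described here are 10 imprinted genes, PLAGL1, IGF2, H19, PEG3, PEG10, MEST, DLK1, MEG3, NDN and GRB10. Every probeset (the group of array probes that is summarised to 1 value) annotated to them was taken, 10 of 32321 in all. The array has a probeset of its own for each of 18404 genes, 7 of the 10 among them. The set was drawn up around PLAGL1, which was chosen by its lower log2 expression in the TRIM71 arrays than in the parental arrays, so the values of PLAGL1 are given as a description with no test. The other 9 genes were listed for being imprinted, in the knowledge of results of these arrays, and their values support nothing about imprinted genes as a class.

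Total RNA was measured on 6 Affymetrix arrays from HEK293 Flp-In cells, an established line of human embryonic kidney origin that carries a site for targeted insertion of a transgene. The labels give 3 arrays of the wild-type parental line and 3 of a line with constitutive expression of FHA-TRIM71, which is TRIM71 fused to FLAG and HA tags. TRIM71 binds RNA and belongs to the TRIM-NHL proteins. The growth protocol names 50 ug/ml hygromycin B for lines that express the transgene, so drug, transgene and other differences between the lines cannot be told apart. The labels name neither the promoter of the transgene nor whether the line is a clone, and nothing says that the triplicates came from separate cultures, so p-values measure only the spread between these samples.

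In an imprinted gene, 1 parental copy is active and the other is silenced by a mark, usually DNA methylation, set in the germ line. Many imprinted genes act on growth before birth, and in general paternally expressed genes favour growth and maternally expressed genes restrain it. PLAGL1, paternally expressed, is described as a suppressor of cell growth, which is not the same as growth before birth. PLAGL1 encodes a zinc finger transcription factor, also known as ZAC1, and its overexpression from loss of the maternal silencing is linked to transient neonatal diabetes. The arrays measure the total RNA of a gene and not which copy it came from, so no value here bears on imprinting itself. In RNA from whole cultures, a change in the share of cells that express a gene and a change in RNA per cell cannot be told apart.

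TRIM71 stood at 7.23, 7.54 and 7.44 log2 units in the parental arrays and at 10.63, 10.86 and 10.72 in the TRIM71 arrays (10.1-fold higher, adjusted p = 6.8e-05, two-sided exact permutation p = 0.1, the smallest 3 arrays against 3 can give). Of 9 markers of HEK293 cells, 8 lay at or above the median of all probesets (6.94), and of 7 measured markers of blood, endothelial, fibroblast and liver cells 1 did. Of the HEK293 markers 3 rose, VIM by 0.40, CDH2 by 0.42 and LHX1 by 0.30. Another 2 fell, KRT8 by 0.22 and NEFL, a neurofilament gene, by 1.45, the largest difference among the 9. The summed log2 level of the 9 markers per array, NEFL included, was 85.92 to 86.36 in the parental line and 85.14 to 85.79 in the TRIM71 line. These ranges do not overlap, and the part of this difference in the results below was not tested. Over the 7 markers of other cells, 0 rose and 0 fell by adjusted p, and their summed log2 level per array spanned 33.73 to 34.18 in the parental line and 33.34 to 33.93 in the TRIM71 line. Array correlations were 0.996 to 0.997 within a group and 0.991 to 0.994 across groups. Below, a gene rose or fell when its Benjamini-Hochberg adjusted p from limma over all probesets was under 0.05, values are log2 expression with SD over n = 3 arrays, and differences are the TRIM71 line minus the parental line.

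PLAGL1, on chromosome 6, measured 8.48, 8.59 and 8.40 in the 3 parental arrays and 6.61, 6.80 and 6.94 in the 3 TRIM71 arrays. All 3 TRIM71 arrays lay below all 3 parental arrays, with the highest of the former more than 1 log2 unit under the lowest of the latter. The group means were 8.49 ± 0.10 and 6.78 ± 0.17, a difference of −1.70 (SE 0.10), or 3.26-fold lower. Of 18404 genes, 26 had a larger fall in level. In the TRIM71 line, PLAGL1 stood at or below the median of all probesets, and in the parental line above it. Leaving out any 1 array gave differences of −1.78 to −1.62.

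The RefSeq table holds 5 start windows for PLAGL1, and the array has 1 probeset for the gene, so the level from each start was not measured. The 250 bases before the 2 starts richest in CpG (the base pair step at which DNA is methylated) are shown. Methylation was not measured here, and a high CpG count alone does not mark a start as imprinted. The window at chr6:144008260-144008509 (GRCh38.p14, minus strand) is also that of HYMAI, a noncoding RNA of the same imprinted locus, and holds 32 CpG. The window at chr6:144064600-144064849 on the same strand lies further upstream and holds 21. Capitals mark each CG.
PLAGL1 start shared with HYMAI: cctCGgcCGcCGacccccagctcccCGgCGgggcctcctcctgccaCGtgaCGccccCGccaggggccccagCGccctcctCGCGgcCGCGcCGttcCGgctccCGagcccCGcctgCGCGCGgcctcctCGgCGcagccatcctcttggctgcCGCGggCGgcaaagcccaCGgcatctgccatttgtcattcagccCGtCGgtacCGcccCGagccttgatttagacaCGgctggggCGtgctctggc
PLAGL1 upstream start: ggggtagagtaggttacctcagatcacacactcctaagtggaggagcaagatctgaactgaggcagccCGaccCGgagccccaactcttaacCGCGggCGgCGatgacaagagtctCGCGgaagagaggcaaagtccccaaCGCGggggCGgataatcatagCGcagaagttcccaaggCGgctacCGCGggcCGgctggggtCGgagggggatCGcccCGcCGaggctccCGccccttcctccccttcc
Among 35116 such windows in the RefSeq table, the median was 11 CpG, and 90.5% and 69.8% of windows held fewer than these. The other 3 PLAGL1 windows held between 1 and 3 CpG.

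The mouse counterpart of PLAGL1 is known to bind G- and C-rich DNA, and the letters GGGGCCCC, which read the same on both strands, were searched for in the 250 bases before each start. RefSeq windows were at hand for 6 of the 10 genes (PLAGL1, H19, MEST, MEG3, NDN and GRB10), 20 windows in all. Of these, 2 held the letters, against 1.77% of all windows. The windows overlap and share starts, and a match is a description of these letters and not of a bound site. The 2 windows with a match were 75.6% (PLAGL1) and 73.2% (NDN) G and C. The share over all windows was not matched for base content, so nothing is read from the comparison. The matches were in PLAGL1 itself, at chr6:144008430-144008457, and in NDN, at chr15:23687414-23687441, both on the minus strand of GRCh38.p14, with the letters in capitals.
PLAGL1: gcccccgccaGGGGCCCCagcgccctcc
NDN: cctccccgtcGGGGCCCCgcgctgcccc

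By the likeness of their values across the 6 arrays, the 5 genes nearest to PLAGL1 were NALCN, a sodium leak channel, the zinc finger gene ZNF738, CYP4X1, a cytochrome P450, SLC1A4, a neutral amino acid transporter, and MAP7D2, a microtubule-associated protein. Likeness was the root mean square difference after each gene was centred on its own mean. The comparison covered 17511 genes and left out those with LOC, LINC, open reading frame or small RNA symbols. For the 5 nearest genes the likeness value came to 0.071, 0.080, 0.082, 0.088 and 0.1 log2 units in that order. Their own differences lay between −1.77 and −1.60. NALCN, the nearest, read 6.75, 6.81 and 6.77 in the parental arrays and 4.81, 4.97 and 5.26 in the TRIM71 arrays. Of the 6 other genes among the 10 that have a probeset of their own, the closest was NDN, at 0.784, which ranked 3575.

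**Figure D1:**
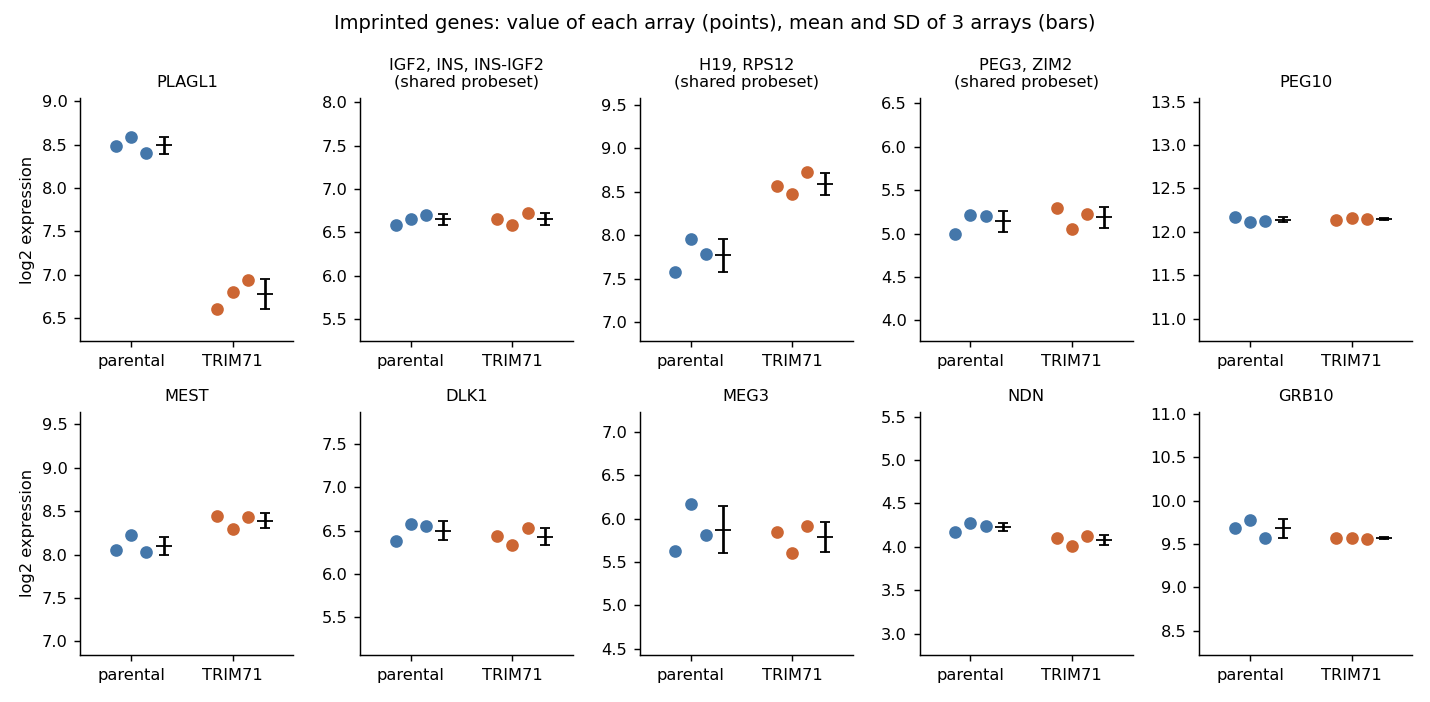
Log2 expression of the 10 imprinted genes in each array (points, y axis, 1 panel a gene, all of the same height in log2 units) for the parental and TRIM71 lines, with mean and SD of 3 arrays beside them. PLAGL1 shows the widest gap between groups, the probeset shared by H19 and RPS12 and that of MEST lie higher in the TRIM71 arrays, and the rest differ by 0.15 or less in size.

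Of the 9 probesets other than that of PLAGL1, 2 rose, 0 fell and 7 did not pass, where 7.95% of all probesets rose and 8.28% fell (16.2% in either direction). With PLAGL1 included, the groups did not overlap for 5 of the 10 probesets, 2 with the TRIM71 arrays above and 3 below, against 35.2% of all probesets. The median difference of the 9 was 0.0034 and their range −0.15 to 0.82. Since the list was made with results of this comparison known, nothing is read from these shares. In 5 of the 10 probesets the mean over the arrays lay below the median of all probesets, namely those for IGF2, PEG3, DLK1, MEG3 and NDN.

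H19, on chromosome 11, is a maternally expressed noncoding RNA that shares enhancers with its neighbour IGF2. Its probeset is annotated to the ribosomal protein gene RPS12 as well, so the value cannot be assigned to H19 alone. It read 7.58, 7.96 and 7.78 in the parental arrays and 8.57, 8.47 and 8.73 in the TRIM71 arrays. Every TRIM71 array was above every parental array. The difference was 0.82 (SE 0.11, 1.76-fold higher, adjusted p = 0.0053), and it stayed between 0.72 and 0.91 when any 1 array was left out. The other probeset annotated to RPS12, which it shares with the small nucleolar RNA SNORA33, differed by 0.05 (SE 0.07, adjusted p = 0.74).

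IGF2, on the same chromosome, encodes a fetal growth factor and is expressed from the paternal copy. Its probeset is shared with INS and the read-through gene INS-IGF2, and it read 6.59, 6.65 and 6.70 in the parental arrays against 6.65, 6.58 and 6.72 in the TRIM71 arrays. The groups overlapped throughout, and the difference was 0.0034 (95% interval −0.14 to 0.14, adjusted p = 0.98). The 2 neighbouring genes thus had unlike values, with the reservation that neither probeset belongs to 1 gene. The antisense transcript IGF2-AS, which has a probeset of its own, differed by −0.02 (adjusted p = 0.92), and it is named after its value was seen.

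MEST, on chromosome 7, encodes a protein of the hydrolase fold family and is expressed from the paternal copy. It read 8.05, 8.22 and 8.03 in the parental arrays and 8.44, 8.29 and 8.43 in the TRIM71 arrays. The groups did not overlap, but the highest parental and lowest TRIM71 arrays lay within 0.1 of each other. MEST rose by 0.28 (SE 0.07, 1.22-fold, adjusted p = 0.046). The call ended when parental replicate 1, parental replicate 3 or any 1 TRIM71 array was left out (adjusted p 0.054 to 0.14), and held without parental replicate 2 (0.045). It also ended with quantile normalization (adjusted p = 0.053) or the replicate block (0.13).

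PEG10, derived from a retrotransposon and needed for the placenta, read 12.17, 12.11 and 12.13 in the parental arrays and 12.14, 12.16 and 12.15 in the TRIM71 arrays. The arrays of both lines lay within 0.06 of each other, and the difference was 0.01 (95% interval −0.09 to 0.12), the narrowest interval among the 10. PEG3, which encodes a zinc finger protein and shares its probeset with ZIM2, read 5.0, 5.21 and 5.2 against 5.29, 5.05 and 5.23. The groups overlapped, with a difference of 0.05 (95% interval −0.16 to 0.26). Both genes are expressed from the paternal copy.

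DLK1 and MEG3 are neighbours on chromosome 14, the former a paternally expressed membrane protein related to Notch ligands and the latter a maternally expressed noncoding RNA. DLK1 read 6.38, 6.58 and 6.55 in the parental arrays and 6.44, 6.33 and 6.53 in the TRIM71 arrays. MEG3 read 5.63, 6.17 and 5.81 against 5.85, 5.60 and 5.92, the widest spread within a group among the 10 genes. Neither passed, with differences of −0.07 (95% interval −0.26 to 0.12) and −0.08 (−0.45 to 0.28).

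NDN, necdin, is a paternally expressed growth suppressor of the MAGE family in the Prader-Willi region of chromosome 15. It read 4.17, 4.28 and 4.24 in the parental arrays and 4.10, 4.01 and 4.13 in the TRIM71 arrays, below the lower quartile of all probesets (5.03). The TRIM71 arrays lay just under the parental ones, and the difference of −0.15 (SE 0.06) did not pass (adjusted p = 0.12). GRB10, an adaptor that dampens insulin and IGF1 receptor signalling, is an imprinted gene whose active copy differs between tissues. It read 9.69, 9.78 and 9.57 against 9.57, 9.57 and 9.56, with the groups apart by less than the rounding of these values. Its difference was −0.11 (95% interval −0.27 to 0.04, adjusted p = 0.30).

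Set out by the active copy, the 7 paternally expressed genes differed by −1.70 (PLAGL1) to 0.28 (MEST), with a median of 0.0034, and the 2 maternally expressed genes by 0.82 (H19, shared probeset) and −0.08 (MEG3). The classes thus held values of both signs, and MEG3 did not pass. The comparison was widened to other imprinted genes from a list made from general knowledge. Of these, 15 listed as paternally and 17 as maternally expressed had a probeset of their own. The classes are those of the list, and which copy was active in these cells was not measured. Of the 15, 2 rose, 1 fell and 12 did not pass (median −0.02), and of the 17, 2 rose, 3 fell and 12 did not pass (median −0.06). Over all 18404 genes 10.0% rose and 12.2% fell, 22.2% together, with a median of −0.01. The groups did not overlap for 43.6% of these genes (20.2% with the TRIM71 arrays above, 23.4% below), and among the added imprinted genes for 2 above and 1 below of the paternally expressed and 2 above and 6 below of the maternally expressed. With the 7 and 2 genes above included, the medians of the classes were −0.01 over 22 paternally expressed and −0.06 over 19 maternally expressed. GRB10 was in neither class, and no test was run on the lists.

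FAM50B, a paternally expressed gene that arose by retroposition and lies on chromosome 6 as PLAGL1 does, fell. It read 8.21, 7.80 and 8.0 in the parental arrays and 7.09, 7.08 and 7.23 in the TRIM71 arrays, so the groups stood well apart (difference −0.87, SE 0.11, adjusted p = 0.0039). ZDBF2, a zinc finger gene, rose from 9.36 ± 0.12 to 9.92 ± 0.02 (difference 0.56, adjusted p = 0.0036). L3MBTL1, a reader of methylated histones, rose from 6.15 ± 0.06 to 6.55 ± 0.08 (0.41, adjusted p = 0.0083). These 3 calls held when any 1 array was left out.

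Among genes listed as maternally expressed, ZNF331, a zinc finger gene, fell from 8.54 ± 0.03 to 7.99 ± 0.03 (−0.56, adjusted p = 0.00099). TP73, a relative of p53, fell from 7.91 ± 0.03 to 7.45 ± 0.04 (−0.45, adjusted p = 0.0021). RB1, the retinoblastoma tumour suppressor, fell by 0.29 on the log2 scale (adjusted p = 0.039), a call that ended whichever array was left out (adjusted p 0.058 to 0.10) and with median centring or the replicate block. ZNF597, a zinc finger gene, rose from 7.89 ± 0.12 to 8.51 ± 0.09 (0.62, adjusted p = 0.0039). PPP1R9A, which encodes the actin-binding protein neurabin, rose from 8.34 ± 0.04 to 8.77 ± 0.07 (0.42, adjusted p = 0.0048).

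**Figure D2:**
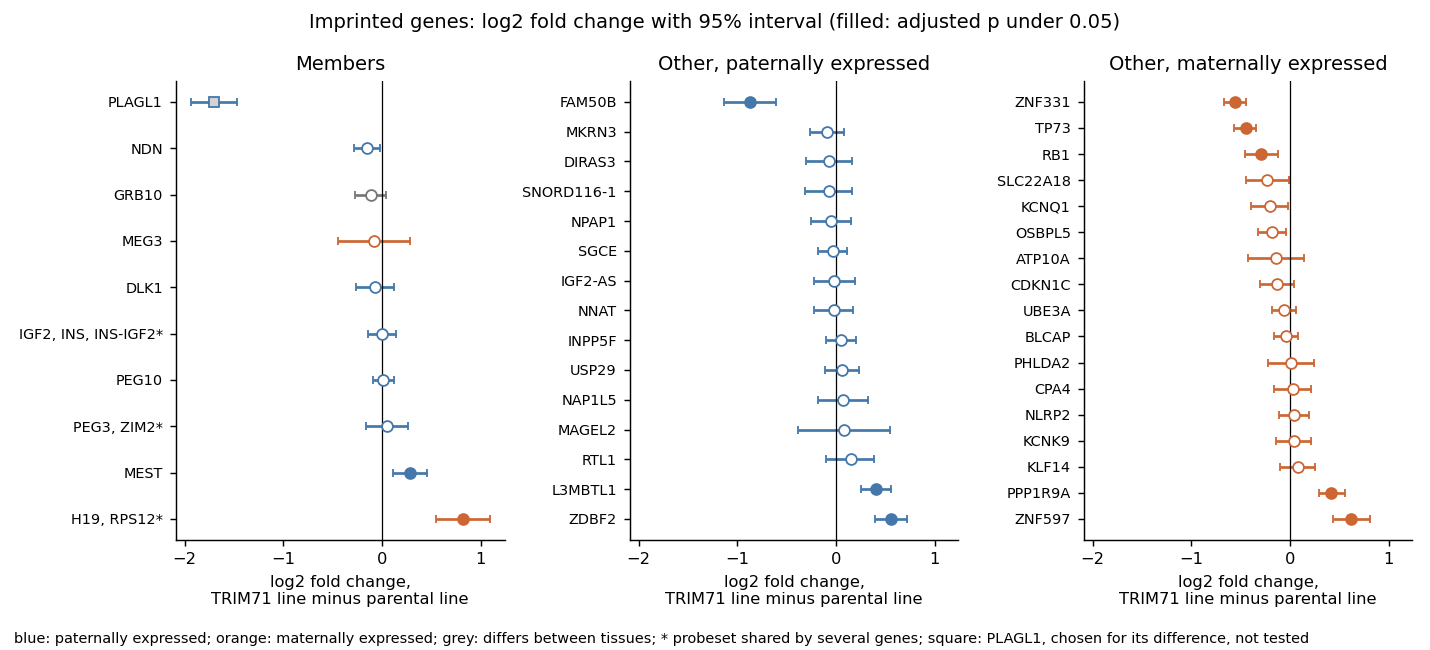
Log2 fold change (x axis, TRIM71 line minus parental line) with its 95% interval for the 10 imprinted genes (left), 15 other paternally expressed genes (middle) and 17 other maternally expressed genes (right), where filled points have an adjusted p under 0.05 and PLAGL1 is a square because it was not tested. PLAGL1 (−1.70), FAM50B (−0.87) and H19 with RPS12 (0.82) lie furthest from 0, and in each allele class points lie on both sides of 0.

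The genes next to the 10 were read for differences that run along a locus, with the 3 nearest protein-coding genes on each side in the RefSeq order that have a probeset of their own, 48 genes in all. Of these, 3 rose, 5 fell and 40 did not pass (median −0.04), against 22.2% of all genes called. Beside PLAGL1, only PHACTR2, a regulator of phosphatase and actin, fell among the 6 flanking genes read. It differed by −0.25 (9.22 ± 0.05 to 8.97 ± 0.09, adjusted p = 0.038), far less than PLAGL1, and LTV1, ZC2HC1B, SF3B5, STX11 and UTRN did not pass, with differences of −0.23 to 0.23.

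Around PEG10 on chromosome 7, 2 of the 6 flanking genes rose. CASD1, an enzyme that acetylates sialic acid, read 9.26, 9.29 and 9.25 in the parental arrays and 10.17, 10.15 and 10.14 in the TRIM71 arrays, a wide gap with little spread (0.89, SE 0.04, adjusted p = 0.00021). PPP1R9A, on the other side, rose as given above. Between them, SGCE, a sarcoglycan that lies head to head with PEG10 and is also paternally expressed, differed by −0.03 (adjusted p = 0.77), and PEG10 by 0.01.

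Beside MEST, CEP41, a centrosomal protein gene, fell by 0.26 and MKLN1, which encodes muskelin, rose by 0.20 (adjusted p = 0.027 and 0.034). MRPL23, a mitochondrial ribosomal protein gene next to H19, fell by 0.20 (adjusted p = 0.038) while the H19 and RPS12 probeset rose. ZNF470, a zinc finger gene near PEG3, fell by 0.72 (7.88 ± 0.06 to 7.16 ± 0.15, adjusted p = 0.0034), and WARS1, the tryptophan tRNA synthetase near DLK1, fell by 0.30 (adjusted p = 0.018). RTL1, a paternally expressed gene of the DLK1 and MEG3 locus, and MAGEL2, one of the NDN locus, did not pass (0.15 and 0.08, adjusted p = 0.41 and 0.84). The flanking genes of NDN and of GRB10 held no call.

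Leaving out 1 array gave 3 to 6 flanking calls in place of 8, newly called genes included. The count was 6 without parental replicate 3, 5 without parental replicate 1, 4 without TRIM71 replicate 1, and 3 without parental replicate 2, TRIM71 replicate 2 or TRIM71 replicate 3. The calls of CASD1, PPP1R9A and ZNF470 held in all 6 of those fits. Those of MRPL23 and MKLN1 ended in every one, and those of PHACTR2, CEP41 and WARS1 in 4 or 5.

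**Figure D3:**
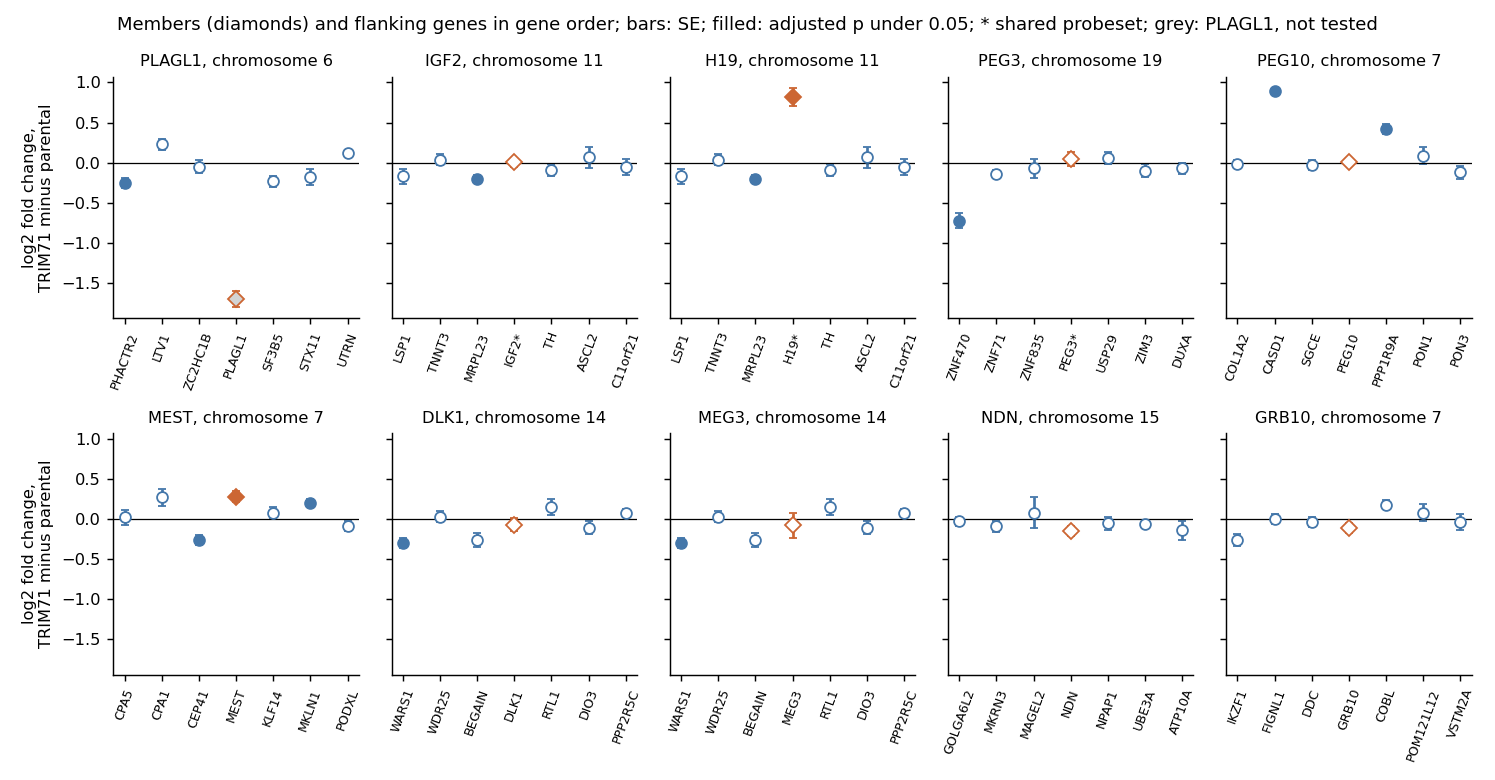
Log2 fold change (y axis, TRIM71 line minus parental line, bars show the SE) of each imprinted gene (diamond) and its flanking protein-coding genes (circles) in chromosome order along the x axis, where filled points have an adjusted p under 0.05 and PLAGL1 is grey because it was not tested. PLAGL1 (−1.70) stands far from its neighbours, which lie between −0.25 and 0.23, and CASD1 (0.89) and PPP1R9A (0.42) rose near PEG10 (0.01).

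PLAGL1 has 2 close relatives, the zinc finger factors PLAG1 and PLAGL2, which are known to promote growth. PLAGL2 read 9.46, 9.46 and 9.47 in the parental arrays and 9.90, 10.03 and 9.97 in the TRIM71 arrays. It rose in every TRIM71 array, by 0.50 (SE 0.05, adjusted p = 0.0019), the opposite direction to PLAGL1. PLAG1 read 8.43, 8.42 and 8.40 against 8.47, 8.51 and 8.44, and its difference of 0.05 did not pass (adjusted p = 0.50).

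Genes that earlier work, mostly on the mouse protein Zac1, describes as regulated by PLAGL1 or in its network were listed from general knowledge, and 8 that are not among the 10 were measured. Of these, 3 fell, 0 rose and 5 did not pass (median −0.09), where 12.2% of all genes fell and 22.2% were called in either direction. They were CDKN1A, a CDK inhibitor (7.97 ± 0.07 to 7.44 ± 0.14, −0.54, adjusted p = 0.0074), ADCYAP1R1, the PACAP receptor (6.13 ± 0.19 to 5.70 ± 0.04, −0.43, adjusted p = 0.029), and APAF1, a scaffold of apoptosis (8.54 ± 0.07 to 8.31 ± 0.05, −0.23, adjusted p = 0.038). Leaving out any 1 array left 1 or 2 calls, 1 without parental replicates 2 or 3 or any TRIM71 array, and the replicate block left 1, with CDKN1A called in all of these fits. The calls of APAF1 and ADCYAP1R1 ended in 6 and 5 of the 6 fits. The list also names IGF2, H19, DLK1, MEG3, GRB10 and PEG3, which are among the 10 and were left out of these counts. None of their probesets fell, and that of H19 and RPS12 rose by 0.82 (adjusted p = 0.0053).

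Of 23 measured genes that set or keep DNA methylation and imprints, 2 rose, 1 fell and 20 did not pass (median −0.0026), where 22.2% of all genes were called. DNMT3B, a methyltransferase that adds new methyl groups, rose from 8.71 ± 0.06 to 9.13 ± 0.02 (0.41, adjusted p = 0.0035). KDM1A, a histone demethylase, rose by 0.18 (adjusted p = 0.049), a call that ended whichever array was left out. TET2, an enzyme that oxidises methylated cytosine, fell at its brighter probeset (9.11 ± 0.03 to 8.81 ± 0.03, −0.29, adjusted p = 0.0083) but not at its other (−0.09, adjusted p = 0.32).

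IGF2 and GRB10 act on the receptors IGF1R and INSR, and 18 further genes of this axis were measured. Of these, 7 rose, 4 fell and 7 did not pass (median 0.04), where 10.0% of all genes rose and 12.2% fell. Like the other lists, this one was made with earlier results of these data known, so nothing is read from these shares. Among receptors and their adaptors, IGF1R, which carries the growth signal of IGF2, rose at its brighter probeset (10.75, 10.80 and 10.79 in the parental arrays to 11.25, 11.17 and 11.21) by 0.43 (adjusted p = 0.0026) and by 0.65 at the other. IRS1, an adaptor below the receptor, rose from 6.53 ± 0.06 to 7.08 ± 0.05 (0.55, adjusted p = 0.0017), while IRS4, of the same family, fell from 12.50 ± 0.02 to 12.18 ± 0.02 (−0.32, adjusted p = 0.0053). IGF2R, which clears IGF2 from the cell surface, rose by 0.22 (adjusted p = 0.020), and GRB7, a relative of GRB10, fell by 0.28 (adjusted p = 0.044).

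Of the secreted proteins that bind IGFs, IGFBP7 fell by 0.53 and IGFBP5 by 0.44 (adjusted p = 0.0032 and 0.0025), and IGFBP3 rose by 0.33 from a dim level (6.22 ± 0.10, adjusted p = 0.017). Of the RNA-binding proteins named for binding IGF2 mRNA, IGF2BP1 rose by 0.38 and IGF2BP2 by 0.26 (adjusted p = 0.0030 and 0.023). The ligand IGF1 rose by 0.32 (adjusted p = 0.015) at 4.50 ± 0.04 in the parental line, below the lower quartile of all probesets. The count of 11 called genes fell to 6 without parental replicate 2 or TRIM71 replicate 2, to 7 without TRIM71 replicate 1 and to 7 with the replicate block. The calls of IGF1R, IRS1, IRS4, IGFBP5, IGFBP7 and IGF2BP1 held whichever array was left out, and those of IGF1, IGF2R, IGFBP3, GRB7 and IGF2BP2 did not.

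Most genes related to NDN and DLK1 did not pass, where 22.2% of all genes were called. Of 7 further MAGE and necdin family genes, MAGED2 rose by 0.25 and MAGEH1 fell by 0.37 (adjusted p = 0.018 and 0.026), and 5 did not pass. Leaving out parental replicate 2 or TRIM71 replicate 1 or 2 left 0 calls, leaving out parental replicate 1 or 3 left 1, and the replicate block left 0. Of 12 further genes of the Notch pathway, to which DLK1 is related, 1 rose and 2 fell. JAG2, a Notch ligand, read 9.10, 9.02 and 9.02 in the parental arrays and 8.01, 8.0 and 8.15 in the TRIM71 arrays, a gap of about 1 log2 unit (−0.99, SE 0.06, adjusted p = 0.00040). HEY1, a target of Notch signalling, fell by 0.43 (adjusted p = 0.0053), and the receptor NOTCH2 rose by 0.22 (adjusted p = 0.024), a call that ended whichever array was left out. DLK2, the nearest relative of DLK1, differed by 0.10 (adjusted p = 0.50), and it is named after its value was seen.

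**Figure D4:**
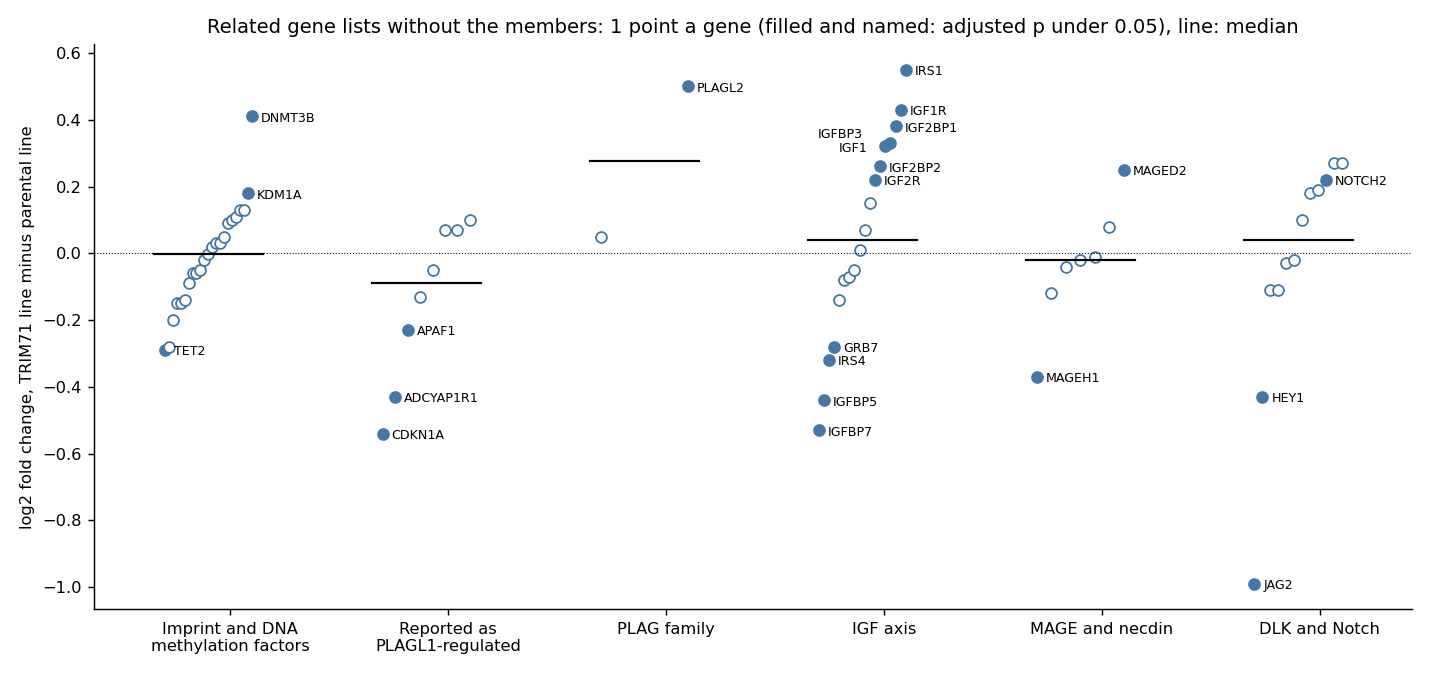
Log2 fold change (y axis, TRIM71 line minus parental line) of the genes in 6 related lists (x axis), the 10 imprinted genes left out, with 1 point a gene, filled and named where the adjusted p was under 0.05, and a line at each list's median. The 3 called genes shown of the list reported as regulated by PLAGL1 lie below 0. The H19 and RPS12 probeset, which rose, belongs to that list but is left out with the 10. The IGF axis holds calls on both sides, and JAG2 (−0.99) lies lowest.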

How the data were processed

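RNA (100 ng per sample, per the labels' protocols) was measured on 6 arrays. The deposited values are log2 expression values, 1 per probeset and array, made by the authors with RMA, which corrects background, quantile normalizes and summarises probes, and the affy package, per the submitters' processing notes. The sources used here give no versions or genome build. RMA hides changes in total mRNA per cell. The precision is limited by 3 arrays a group.

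The platform annotation gave 19158 probesets 1 symbol, 1388 several and 11775 none, and 19128 of the first matched RefSeq (GRCh38.p14) by gene ID. Gene lists used the brightest probeset with 1 symbol. IGF2, H19 and PEG3 have only a probeset with several symbols and are reported as shared. Promoter windows, 250 bases before to 50 after a start, came from RefSeq, GRCh38.p14, and none was listed for IGF2, PEG3, PEG10 and DLK1.

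limma 3.58.1 in R 4.3.3 was fitted to all 32321 probesets with group as the term (lmFit, eBayes), adjusted by Benjamini-Hochberg over all, and tested on simulated data. Genes and lists were chosen with earlier results of these data known. Named genes are the 10, called genes of each list (at most 4 per direction by adjusted p), list genes at the same loci, called flanking genes, and the 5 profiles nearest PLAGL1. IGF2R, IGFBP3, IGF2BP2, IGF2-AS, DLK2, PLAG1 and the uncalled neighbours of PLAGL1 fall outside this rule and were chosen after their values were seen. Alternatives were an intensity trend with robust estimation, quantile normalization, median centring, a filter on probesets below the median, the replicate block, 1 probeset per gene, GRB10 as maternally expressed, and each array left out.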

Additional observations from a re-analysis of the deposited data

How the results depend on the processing

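PLAGL1 differed by −1.78 to −1.62 over every alternative run. Leaving out 1 array gave medians of −0.04 to 0.04 for paternally and −0.09 to −0.03 for maternally expressed genes. For the 9 other probesets, 86 of 100 values kept direction and side of the threshold, 7 lost a call, all of MEST, and 7 changed sign, none of them called. These were IGF2 (−0.004 with quantile normalization, −0.0011 with median centring, −0.03 to 0.04 leaving out 1 array), PEG3 (−0.02 to 0.12 leaving out 1 array) and MEG3 (−0.20 to 0.07). SGCE (−0.06 to 0.01) and MAGEL2 (−0.06 to 0.25) also changed sign. The 2 calls among the 9 became 1 with quantile normalization, with the replicate block, and with 1 probeset per gene (which leaves out the shared probesets, so 6 were tested), and 1 to 2 leaving out 1 array. Imprint factors had 6 calls in place of 3 with the filter on dim probesets and 5 with 1 probeset per gene, and 2 to 3 leaving out 1 array. The Notch list had 5, 7 and 7 in place of 3 with quantile normalization, the filter and 1 probeset per gene, and 2 to 3 leaving out 1 array. Flanking genes had 5 in place of 8 with median centring, 13 with the filter, 13 with 1 probeset per gene, and 3 to 6 leaving out 1 array. The filter and 1 probeset per gene adjust over fewer tests, and the other causes were not tested.

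The replicate block gave 1 call in place of 3 for genes reported as regulated by PLAGL1 (1 to 2 leaving out 1 array), 7 in place of 11 for the IGF axis (6 to 9), 0 in place of 2 for the MAGE family (0 to 2) and 4 in place of 8 for flanking genes. The labels tie same-numbered arrays by number only. Residuals of these pairs correlated at 0.07, −0.19 and 0.11, and 0 of 3 pairs matched best by number. With 3 arrays a group these values are too few to judge a shared batch, which was not tested. The probesets for IGF2, PEG3, DLK1, MEG3 and NDN lay below the median of all probesets, and their signal over background was not measured here.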
